A study of Schizosaccharomyces pombe with 4 samples.

Results

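The genes described here are the protein-coding genes (mRNAs of the deposited table) that lie within 50 kb of an end of chromosomes I, II or III of fission yeast, *Schizosaccharomyces pombe*. A gene was taken if it starts in the first 50 kb of a chromosome or stops in the last 50 kb. No measured value entered this rule, which was set with earlier results of these data known. This gave 84 of 5129 genes (1.64%), with 18 at the left end of chromosome I, 16 at its right end, 16 at the left end of chromosome II, 12 at its right end, 7 at the left end of chromosome III and 15 at its right end. Total RNA was sequenced from 2 biological replicates of strain YAM2397, which carries a kanMX4 replacement of *exo2* (*exo2*Δ), and 2 of strain YAM2394 (WT). Both strains are h+ and share the auxotrophic alleles ade6-M210, ura4-D18 and leu1-32, and both were harvested in mid-log phase from rich (YES) medium. A single strain stands for each genotype. The study asked which RNAs accumulate when *exo2* is absent, and in particular which antisense long noncoding RNAs do.

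The ends of chromosomes I and II of fission yeast are packed in heterochromatin, in which histone H3 is methylated on lysine 9 by Clr4, and genes in it are held at low levels in growing cells. The ends of chromosome III carry the ribosomal DNA arrays. Subtelomeric genes include the telomere-linked RecQ-type helicases, cell surface proteins, transporters and catabolic enzymes, and many occur in copies shared between ends. Exo2 is the cytoplasmic 5′ to 3′ exonuclease (Xrn1 in budding yeast), which degrades decapped mRNAs and noncoding RNAs. The noncoding RNAs that accumulate without it are the Xrn1-sensitive unstable transcripts (XUTs), and one that runs opposite to a gene is an antisense XUT (asXUT).

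Values are densities in tag/nt, the reads on a transcript divided by its length, normalized by the authors on small nuclear and nucleolar RNAs. Positions of genes are those of the deposited table (ASM294v2). Summed over annotated features, each library held between 46964618 and 51019820 reads, where a read in overlapping features can count more than once. The genes near the ends held 55644 and 60245 of these in the *exo2*Δ libraries, against 48392 and 44977 in the WT libraries, but most of these came from a few genes, and the median gene had 69.5 and 67 reads in the *exo2*Δ libraries against 8 and 8.5 in the WT libraries. The deleted gene, *exo2*, stood at 0.663 and 0.636 tag/nt under the label *exo2*Δ, against 0.488 and 0.458 tag/nt under the label WT. Its level over the whole gene thus did not fall as the label *exo2*Δ would have it. It had 2426 and 2382 reads under *exo2*Δ, against 2485 and 2181 under WT. Its log2 ratio was 0.46, beside a median of 1.08 over all genes. The study states that its strains were checked by PCR and by northern blot. Which bases of *exo2* are replaced is not given in the sources used here, and the names *exo2*Δ and WT are used throughout as the labels give them. Of the 84 genes, 72 had at least 10 reads summed over the 4 libraries and were tested, and a gene was called when the adjusted p was under 0.05 and the ratio of *exo2*Δ to WT was past 2-fold, upward (higher) or downward (lower).

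Many of the genes near the ends are hard to tell apart by single short reads. Fragments were sequenced from both ends, and the measure below, which looks at single stretches, does not count placement by the other read. In 50 of the 84 genes (59.5%), fewer than 50% of the 50-base windows occur once in the genome, whereas this holds for 98 of 5118 genes overall (1.91%), so that the genes near the ends make up 50 of these 98. Of the 84 genes, 46 fall into 16 families of copies, and each of the 16 families has members at more than 1 end. A family joins genes where at least 1 of a pair shares 50% or more of its windows with the other. A member can itself share less, as SPAC212.08c does (21.6% with SPAC212.12). In 21 genes no window is unique. The coding sequences of 28 pairs of copies have the same length, and of these 9 pairs are identical and 19 differ at 1 to 4 bases. The transporter copies at the right end of chromosome I and at both ends of chromosome II show how little there is to place a read by. These are bases 1247 to 1326 of their 1458 coding bases (RefSeq, ASM294v3, at chrI:5560321-5560400 on the minus strand, chrII:14818-14897 on the plus strand and chrII:4498069-4498148 on the minus strand), where the capital marks the base that is not the same in the 3 copies.
SPAC750.02c: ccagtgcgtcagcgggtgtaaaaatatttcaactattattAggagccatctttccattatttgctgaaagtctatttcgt
SPBC1348.05: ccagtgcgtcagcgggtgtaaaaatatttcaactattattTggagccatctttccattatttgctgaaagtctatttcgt
SPBPB2B2.16c: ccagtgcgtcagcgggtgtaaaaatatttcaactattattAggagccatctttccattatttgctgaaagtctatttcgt

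The transmembrane proteins *ftm4*, *ftm5* and SPBPB2B2.19c are copies of the same kind, in which *ftm4* differs from each of the others at 3 of 1035 coding bases, and *ftm5* and SPBPB2B2.19c do not differ. Bases 673 to 752 are shown with the differing base in capitals (chrI:5566489-5566568 on the minus strand, chrII:8652-8731 on the plus strand and chrII:4504193-4504272 on the minus strand of ASM294v3).
ftm4: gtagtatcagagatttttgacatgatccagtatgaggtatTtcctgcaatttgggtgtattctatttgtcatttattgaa
ftm5: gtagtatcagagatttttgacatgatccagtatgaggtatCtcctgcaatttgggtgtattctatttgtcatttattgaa
SPBPB2B2.19c: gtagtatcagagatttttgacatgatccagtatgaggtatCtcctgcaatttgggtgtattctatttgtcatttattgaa

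The dehydrogenase *ayr2* and its copy SPBC1348.09 are identical over their 711 coding bases, and their first 80 bases are shown with the start codon in capitals (chrI:44704-44783 and chrII:24916-24995, both on the plus strand of ASM294v3).
ayr2: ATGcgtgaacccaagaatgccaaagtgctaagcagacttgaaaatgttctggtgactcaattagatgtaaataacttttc
SPBC1348.09: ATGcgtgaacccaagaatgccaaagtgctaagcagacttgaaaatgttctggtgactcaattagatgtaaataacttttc

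Neither *ayr2* nor SPBC1348.09 had a read in any of the 4 libraries. The same was seen for the phospholipase *plb4* and its copy SPBC1348.10c, whose 2022 coding bases are identical. These are 4 of the 21 genes with no unique window, and the other 17 had reads. A value at 0 or above it for a gene of this kind is uncertain as to the copy from which the RNA came. The study describes densities in its plots as computed from uniquely mapped reads.

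The genes near the ends were mostly higher in the libraries labelled *exo2*Δ. Of the 84 genes, 56 were called higher and 0 lower, 16 were tested and not called, and 12 had too few reads to test. Over all genes, 54.8% of those tested were called higher and 0.276% lower, beside 77.8% of the tested genes near the ends called higher, so that a rise was the common outcome everywhere. On p alone, with no minimum ratio, 62 of the genes near the ends were higher and 2 lower, beside 88.1% and 4.31% of all genes tested. A higher density in bulk RNA can come from more RNA per cell or from more cells that hold it, and these cannot be told apart. Both *exo2*Δ libraries lay above both WT libraries for 70 of the 84 genes, beside 90.5% of all genes. The median log2 ratio of the 72 tested genes was 2.55 (quartiles 1.48 and 4.11, 2.59 and 2.47 in the replicate pairs), beside 1.08 over the 5007 other genes tested (quartiles 0.64 and 1.47). A gene with few reads passes the filter only through the libraries in which it is high, so these medians describe the genes that were tested and are not evidence about all 84. With the scaling set on all features in place of the small nuclear and nucleolar RNAs (TMM factors), the median of all genes moved to -0.083 and that of the genes near the ends to 1.40, and 37 of them were called higher and 4 lower, when over all genes 272 were called higher and 476 lower against 2782 and 14 with the deposited scaling. The distance between both medians was 1.47 with the deposited scaling and 1.48 with TMM factors. A scaling moves all genes by about the same amount, so this distance was bound to stay nearly the same and is no check on it.

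The rise was not the same at the 6 ends, from which distances are counted as ends of the chromosome sequence. At the ends of chromosomes I and II, 44 of 62 genes were called higher (88.0% of the 50 tested), with a median log2 ratio of 3.53. At the ends of chromosome III 12 of 22 genes were (54.5%, all tested), with a median of 1.09. Both values of chromosome III are close to the 54.8% and 1.08 of all genes tested. By end, the medians were 3.01 (I left), 3.71 (I right), 4.34 (II left), 3.03 (II right), 1.73 (III left) and 1.01 (III right). With TMM factors the right end of chromosome III had a median of -0.16, and the other ends kept positive medians between 0.56 and 3.18. The genes of chromosome III also had higher levels, with a median density of 0.585 tag/nt in *exo2*Δ and 0.217 in WT, against 0.0299 in *exo2*Δ and 0.00314 in WT at the ends of chromosomes I and II. The level was compared by taking other genes of the same mean density over the 4 libraries, a mean that includes *exo2*Δ and so moves with the change itself. Under 0.01 tag/nt, 12 genes near the ends (6 called higher) had a median log2 ratio of 2.89 and 40 other genes (27.5% called higher) 1.59. Between 0.01 and 0.1 tag/nt, 25 genes near the ends (23 called higher) had a median log2 ratio of 3.77 and 333 other genes (61.9%) 1.26. Between 0.1 and 1 tag/nt, the medians were 2.32 over 26 genes near the ends (22 called higher) and 1.16 over 2628 other genes (61.9%). At 1 tag/nt or more they were 1.01 over 9 genes near the ends (5 called higher) and 0.90 over 2006 other genes (43.9%). All of these 9 but *gdt1* and SPAC750.01 lie on chromosome III.

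**Figure D1:**
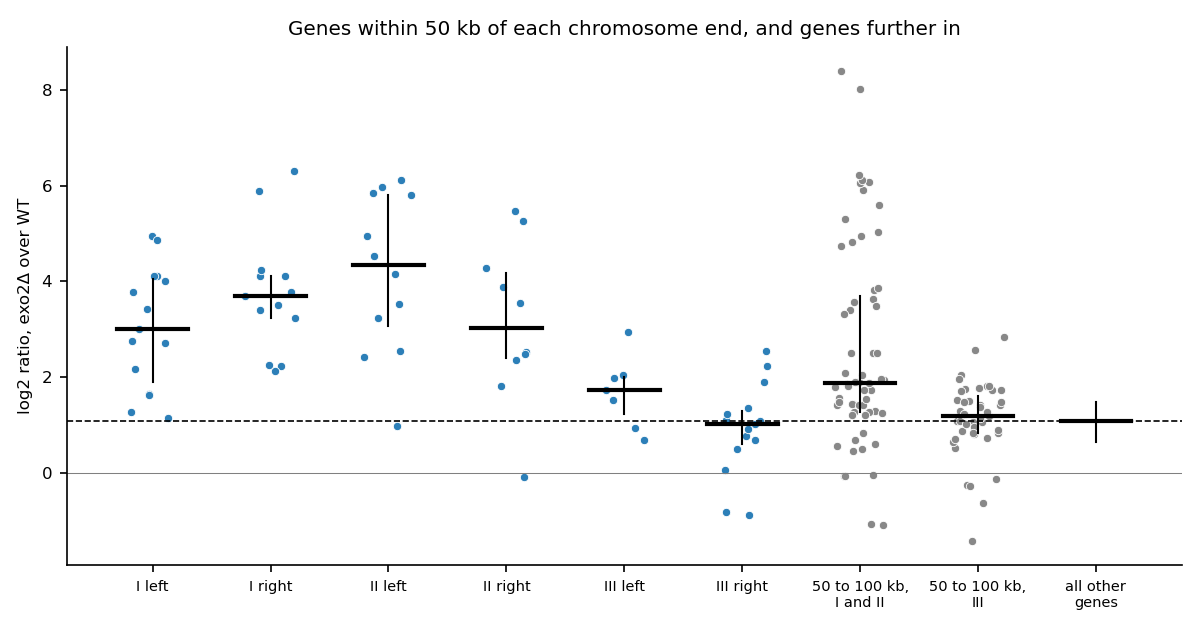
Log2 ratio of *exo2*Δ to WT (vertical axis) for the tested genes at each of the 6 chromosome ends (blue points), for genes 50 to 100 kb from an end on chromosomes I and II and on III (grey points) and for all other genes (bars only); thick bars are medians, thin bars run between the quartiles, and the dashed line is the median of all genes (1.08). The ends of chromosomes I and II have medians between 3.01 and 4.34, and the right end of chromosome III lies at 1.01.

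At the left end of chromosome I, 12 of 18 genes were called higher, 3 were not and 3 were not tested. All 18 have fewer than 50% unique windows, and together they held 1238 and 1291 reads in the *exo2*Δ libraries, against 205 and 212 in the WT libraries. The outermost gene is *tlh1* (chrI:1-5662, minus strand), a telomere-linked RecQ-type helicase that begins at the first base of the chromosome sequence and has 0.891% unique windows. It had 0.00808 and 0.00243 tag/nt in *exo2*Δ, against 0.00179 and 0.00175 in WT. Both *exo2*Δ libraries were above both WT libraries, but *exo2*Δ replicate 2, with 12 reads, lay close to WT and *exo2*Δ replicate 1, with 39, did not, and the log2 ratio of 1.26 (SE 1.06) was not past the test (adjusted p = 0.29). Without *exo2*Δ replicate 2 it was called higher (adjusted p = 0.0495). The transmembrane gene *ftm1* had 0.323 and 0.337 tag/nt in *exo2*Δ, against 0.0181 and 0.0228 in WT. That is a log2 ratio of 4.01 (SE 0.18, adjusted p = 3.3e-06), with all of the *exo2*Δ values far above WT. SPAC212.02, an uncharacterised protein, had 0.266 and 0.273 tag/nt in *exo2*Δ, against 0.00411 and 0.0175 in WT. Its log2 ratio was 4.96 (SE 0.59, adjusted p = 0.00017), and the WT libraries, at 2 and 8 reads, differed more between themselves than the *exo2*Δ libraries did.

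Other genes of this end that were called higher range from the GPI-anchored protein SPAC212.12, with a log2 ratio of 1.13, to the uncharacterised SPAC977.06, with 4.87. Between them lie the helicase-like SPAC212.06c at 4.12, SPAC977.18 at 3.77, the GPI-anchored SPAC212.08c at 3.01, SPAC212.04c at 2.74, the glycoprotein *pfl6* at 2.71 and the Vel1p domain protein SPAC977.05c at 1.62. SPAC212.01c, uncharacterised, had 152 and 167 reads in *exo2*Δ, against 52 and 43 in WT, and was called higher as well. SPAC977.04, which falls in the transporter family of copies, had 14 and 15 reads in *exo2*Δ, against 1 and 1 in WT, a ratio of 19.3 (4.88 to 167, exact counting interval). Tested and not called were *ftm2*, with 5 and 7 reads in *exo2*Δ and 0 and 3 in WT, and SPAC212.03, with 2 and 6 reads in *exo2*Δ and 1 and 2 in WT. Their adjusted p were 0.085 and 0.11. The methyltransferase SPAC977.03 was not tested, with 1 and 5 reads in *exo2*Δ and 1 and 2 in WT, nor were *ayr2* and *plb4*, at 0.

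At the right end of chromosome I, 12 of 16 genes were called higher, 1 was not and 3 were not tested. Copies fill the outer part of this window and mostly single-copy genes the inner part, and 8 of the 16 have 50% or more unique windows. SPAC750.01 (chrI:5555716-5556768, plus strand), an aldo/keto reductase, had 1.89 and 2.06 tag/nt in *exo2*Δ, against 0.105 and 0.122 in WT. This is a log2 ratio of 4.12 (SE 0.11, adjusted p = 2e-06), and 65.8% of its windows are unique. The L-asparaginase SPAC186.03 (chrI:5535061-5536432, plus strand), an enzyme that frees ammonium from asparagine, had 0.121 and 0.112 tag/nt in *exo2*Δ, against 0.00246 and 0.00131 in WT, where it had 4 and 2 reads. Its log2 ratio of 5.90 (SE 0.43, adjusted p = 1.6e-05) was the highest of this end among genes with reads in WT, and 43.5% of its windows are unique, since it shares sequence with SPBPB21E7.09 elsewhere. The uncharacterised SPAC186.04c had 0.127 and 0.113 tag/nt in *exo2*Δ, against 0.0114 and 0.00956 in WT, a log2 ratio of 3.50 (SE 0.25, adjusted p = 1.4e-05). The most abundant gene of chromosomes I and II in these windows was *gdt1* (chrI:5540032-5541502, minus strand), whose budding yeast counterpart moves manganese and calcium into the Golgi. It had 3.38 and 3.37 tag/nt in *exo2*Δ, against 0.725 and 0.712 in WT, and the log2 ratio was 2.23 (SE 0.06, adjusted p = 2e-06). Its replicates lay close together in both genotypes.

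Of the copies at the outer part of this end, *ftm4* had 0.703 and 0.737 tag/nt in *exo2*Δ, against 0.0452 and 0.0600 in WT, a log2 ratio of 3.78 (SE 0.16, adjusted p = 2.8e-06). The transporter SPAC750.02c had 0.0925 and 0.110 tag/nt in *exo2*Δ, against 0.00641 and 0.00421 in WT, a log2 ratio of 4.24 (SE 0.34, adjusted p = 2.3e-05). Both rose. SPAC750.02c has no unique window, and *ftm4* has 7.10% unique windows, so few single stretches tell it from its copies on chromosome II. The outermost gene, SPAC750.08c, annotated as an NAD-dependent malic enzyme, had 8 and 10 reads in *exo2*Δ, against 4 and 0 in WT. It was called higher at a log2 ratio of 4.11 (SE 1.61, adjusted p = 0.045), but it has no unique window and the size rests on the WT library at 0, being 1.59 once WT replicate 2 was left out, 6.62 once WT replicate 1 was, and 1.87 at a pseudocount of 10 times the smallest density. The call was lost without either *exo2*Δ library (adjusted p = 0.15 and 0.17), with no filter on reads (0.053) and with each other scaling (0.072 to 0.19). The uncharacterised SPAC750.06c had a log2 ratio of 2.12, and SPAC750.07c, with 4 and 7 reads in *exo2*Δ against 1 and 2 in WT, a ratio of 4.88 (1.29 to 27.2, counting interval).

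The inner part of this end holds genes of carbohydrate and acid metabolism. Pyruvate decarboxylase *pdc102*, of the enzyme family that makes acetaldehyde in fermentation, had 0.0246 and 0.0260 tag/nt in *exo2*Δ, against 0.00246 and 0.00262 in WT. It rose by a log2 ratio of 3.24 (SE 0.52, adjusted p = 0.00075) on 5 reads in each WT library. The isomerase SPAC186.06 had 0.805 and 0.715 tag/nt in *exo2*Δ, against 0.0717 and 0.0717 in WT, a log2 ratio of 3.40 (SE 0.11, adjusted p = 2.2e-06). The hydroxyacid dehydrogenase SPAC186.02c had 23 and 8 reads in *exo2*Δ and 0 in both WT libraries, so that it was at least 6.90-fold higher in *exo2*Δ against a floor of 3 reads per WT library. It was called higher (adjusted p = 0.0073), and its fitted log2 ratio depends on the pseudocount. The L-lactate dehydrogenase SPAC186.08c had 7 and 3 reads in *exo2*Δ, against 1 and 0 in WT, which was not past the test (adjusted p = 0.080), and the second hydroxyacid dehydrogenase, SPAC186.07c, had 2 and 0 reads in *exo2*Δ and 0 in both WT libraries and was not tested. Not tested either were *ftm3* and the methyltransferase SPAC750.03c, with 1 read each.

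At the left end of chromosome II, 11 of 16 genes were called higher, 1 was not and 4 were not tested. The inner 5 genes, from SPBC1348.12 to *grt1*, are single-copy, and all 5 were called higher. The urea transporter SPBPB8B6.02c (chrII:44694-46836, minus strand) had 0.931 and 0.892 tag/nt in *exo2*Δ, against 0.0154 and 0.0109 in WT, on 1700 and 1668 reads against 39 and 26. With a log2 ratio of 6.12 (SE 0.19, adjusted p = 2e-06) it showed the largest rise among the genes near the ends with at least 50 normalized reads. The transcription factor *grt1* (chrII:47369-51220, minus strand) had 0.195 and 0.168 tag/nt in *exo2*Δ, against 0.00767 and 0.00772 in WT, a log2 ratio of 4.53 (SE 0.23, adjusted p = 4.5e-06). A second DNA-binding transcription factor, SPBC1348.12 (chrII:35112-36589, plus strand), had 0.354 and 0.382 tag/nt in *exo2*Δ, against 0.0171 and 0.0244 in WT, a log2 ratio of 4.16 (SE 0.21, adjusted p = 4.2e-06). In all 3 of these genes the lowest *exo2*Δ library was more than 10-fold above the highest WT library. The hexose transporter *ght7* had 0.0439 and 0.0474 tag/nt in *exo2*Δ, against 0.00335 and 0.00664 in WT, a log2 ratio of 3.23 (SE 0.45, adjusted p = 0.00038). The acetamidase *fah1* had 0.0314 and 0.0233 tag/nt in *exo2*Δ, against 0.00503 and 0.00403 in WT, a log2 ratio of 2.55 (SE 0.46, adjusted p = 0.0013). It overlaps *grt1* on the other strand, and the libraries are stranded.

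The outer 11 genes of this end are copies. SPBC1348.01, the outermost gene that was tested, had 0.181 and 0.201 tag/nt in *exo2*Δ, against 0.0326 and 0.0393 in WT, a log2 ratio of 2.41 (SE 0.18, adjusted p = 1.6e-05). The transmembrane gene *ftm5* had 0.453 and 0.481 tag/nt in *exo2*Δ, against 0.0361 and 0.0450 in WT, a log2 ratio of 3.53 (SE 0.15, adjusted p = 3e-06). Both genes have no unique window. The uncharacterised SPBC1348.07 (84 and 82 reads in *exo2*Δ, 3 and 1 in WT) had a log2 ratio of 5.81, and the transporter SPBC1348.05 (42 and 55 reads in *exo2*Δ, 3 and 1 in WT) one of 4.94. The glycoprotein SPBC1348.08c had 26 and 22 reads in *exo2*Δ and 1 and 0 in WT, a ratio of 63.8 with a counting interval that starts at 10.9, and was called higher (adjusted p = 0.0028). The transmembrane gene *ftm6* had 6 and 7 reads in *exo2*Δ and 0 in WT, at least 2.88-fold higher. SPBC1348.06c, with a Vel1p domain, had 6 and 3 reads in *exo2*Δ and 2 and 4 in WT, and its groups overlapped. SPBC1348.15 and the methyltransferase SPBC1348.04, with 7 and 2 reads over the 4 libraries, and SPBC1348.09 and SPBC1348.10c were not tested.

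At the right end of chromosome II, 9 of 12 genes were called higher, 1 was not and 2 were not tested, and 11 of the 12 have fewer than 50% unique windows. The outermost gene is *tlh2* (chrII:4526885-4532899, plus strand), the second telomere-linked helicase. It had 0.168 and 0.138 tag/nt in *exo2*Δ, against 0.0385 and 0.0483 in WT, with 861 and 726 reads against 274 and 322. Its log2 ratio was 1.82 (SE 0.20, adjusted p = 9.8e-05), under the median of its end, and it was 0.66 with TMM factors, no longer past 2-fold. SPBPB2B2.19c, of the *ftm* family, had 1.42 and 1.43 tag/nt in *exo2*Δ, against 0.118 and 0.126 in WT, a log2 ratio of 3.54 (SE 0.09, adjusted p = 2e-06). The transporter SPBPB2B2.16c (73 and 61 reads in *exo2*Δ, 4 and 1 in WT) had a log2 ratio of 5.27, and SPBPB2B2.14c (52 and 53 reads in *exo2*Δ, 1 and 2 in WT), which is uncharacterised, had 46.6 times as many reads per unit of depth in *exo2*Δ (95% Clopper-Pearson interval 15.5 to 229, counting error only). SPBPB2B2.18, SPBCPT2R1.01c, SPBCPT2R1.02 and SPBCPT2R1.04c, all uncharacterised, had log2 ratios of 3.88, 2.52, 4.29 and 2.48, and SPBPB2B2.15, with a Vel1p domain, had 2.36. SPBCPT2R1.03 and *ftm7* were not tested, with 3 and 5 reads over the 4 libraries.

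The innermost gene of this end behaved otherwise. Galactokinase, *gal1* (chrII:4488322-4490271, plus strand), which carries out the first step of galactose use, had 0.131 and 0.131 tag/nt in *exo2*Δ, against 0.125 and 0.158 in WT. The *exo2*Δ values lay between the WT values, and the log2 ratio was -0.10 (SE 0.16, adjusted p = 0.56). It was the only tested gene within 50 kb of an end of chromosomes I and II whose fitted log2 ratio was negative. Its sign turned without WT replicate 2 (0.068), and with TMM factors, which move all genes down, it was -1.27 and called lower. All windows of *gal1* are unique.

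At the left end of chromosome III, 4 of 7 genes were called higher (57.1%, beside 54.8% of all genes tested) and 3 were not. The genes of this window begin 28.3 kb from the end of the chromosome sequence. How far that sequence runs into the ribosomal DNA arrays was not examined. The windows of chromosome III need not lie as near the physical end as those of chromosomes I and II. The outermost gene, SPCP20C8.01c, had 0.471 and 0.471 tag/nt in *exo2*Δ, against 0.0997 and 0.133 in WT, a log2 ratio of 2.03 (SE 0.15, adjusted p = 1.8e-05), which was 0.87 with TMM factors. It is a copy of SPCC569.01c at the right end of the chromosome, and 14.4% of its windows are unique. The glyoxalase *hsp3101* (chrIII:47325-48577, minus strand), an enzyme of methylglyoxal removal, had 0.202 and 0.241 tag/nt in *exo2*Δ, against 0.0256 and 0.0317 in WT. Its log2 ratio of 2.95 (SE 0.19, adjusted p = 9.8e-06) was the largest on chromosome III in these windows. SPCC1884.01 and SPCP20C8.02c, both uncharacterised, had log2 ratios of 1.98 and 1.73. The nickel and cobalt transporter *nic1* had 1.15 and 1.14 tag/nt in *exo2*Δ, against 0.696 and 0.723 in WT, which passed the test on p (8.8e-05) but not on size, at a log2 ratio of 0.69. The same held for *new22*, at 0.93 (adjusted p = 0.013). SPCC757.02c, which lies within *nic1* on the other strand, had 4 and 11 reads in *exo2*Δ and 4 and 2 in WT and did not pass.

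At the right end of chromosome III, 8 of 15 genes were called higher (53.3%, beside 54.8% of all genes tested) and 7 were not. This end held most of the reads of all 6 windows. The gene with the highest level in WT was *rpp103* (chrIII:2407722-2408378, minus strand), a ribosomal protein of the P1 stalk. It had 12.5 and 14.2 tag/nt in *exo2*Δ, against 23.6 and 23.8 in WT. Both *exo2*Δ libraries were below both WT libraries, and the log2 ratio of -0.83 (SE 0.08, adjusted p = 4.1e-05) was negative without reaching 2-fold. SPCC569.03 (chrIII:2429987-2431575, minus strand), uncharacterised, had 0.111 and 0.133 tag/nt in *exo2*Δ, against 0.186 and 0.275 in WT, a log2 ratio of -0.90 (SE 0.21, adjusted p = 0.0047). These 2 genes are the only ones of the 84 with both *exo2*Δ libraries below both WT libraries, beside 5.4% of all genes. They were called lower with each other scaling tried, and SPCC569.03 also without WT replicate 1 (-1.18) or *exo2*Δ replicate 2 (-1.03). Without WT replicate 2 SPCC569.03 was at -0.62, and without *exo2*Δ replicate 1 at -0.77, no longer past the test on p (adjusted p = 0.061).

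The next most abundant genes of this end rose by about the median of all genes. SPCC569.06 had 3.84 and 4.11 tag/nt in *exo2*Δ, against 1.89 and 1.85 in WT, a log2 ratio of 1.09 (SE 0.07, adjusted p = 7.6e-06). The ribosome biogenesis gene *nsa2* had 2.67 and 3.07 tag/nt in *exo2*Δ, against 1.26 and 1.42 in WT, a log2 ratio of 1.10 (SE 0.10, adjusted p = 3.5e-05), and without *exo2*Δ replicate 2 it was just under 1. Both were called higher, and with TMM factors both were slightly negative (-0.081 and -0.066). The RNA-binding protein *puf6*, at 1.01, the aromatic aminotransferase SPCC569.07, at 1.21, and *cwf18*, a protein of the spliceosome, at 1.36, were called higher as well, as were SPCC569.09 at 1.90, SPCC569.04, which overlaps SPCC569.05c on the other strand, at 2.55 and the outermost gene SPCC569.01c. SPCC569.01c had 0.210 and 0.185 tag/nt in *exo2*Δ, against 0.0395 and 0.0441 in WT, a log2 ratio of 2.24 (SE 0.16, adjusted p = 1.6e-05). Under 2-fold, though past the test on p, were the purine synthesis gene *ade5* at 0.76, *dhm1* at 0.68, the clathrin adaptor subunit *apl4* at 0.50 and SPCC569.02c at 0.91. The spermidine family transporter SPCC569.05c had 1.31 and 1.45 tag/nt in *exo2*Δ, against 1.44 and 1.22 in WT, with overlapping groups and a log2 ratio of 0.05 (SE 0.10, adjusted p = 0.64).

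**Figure D2:**
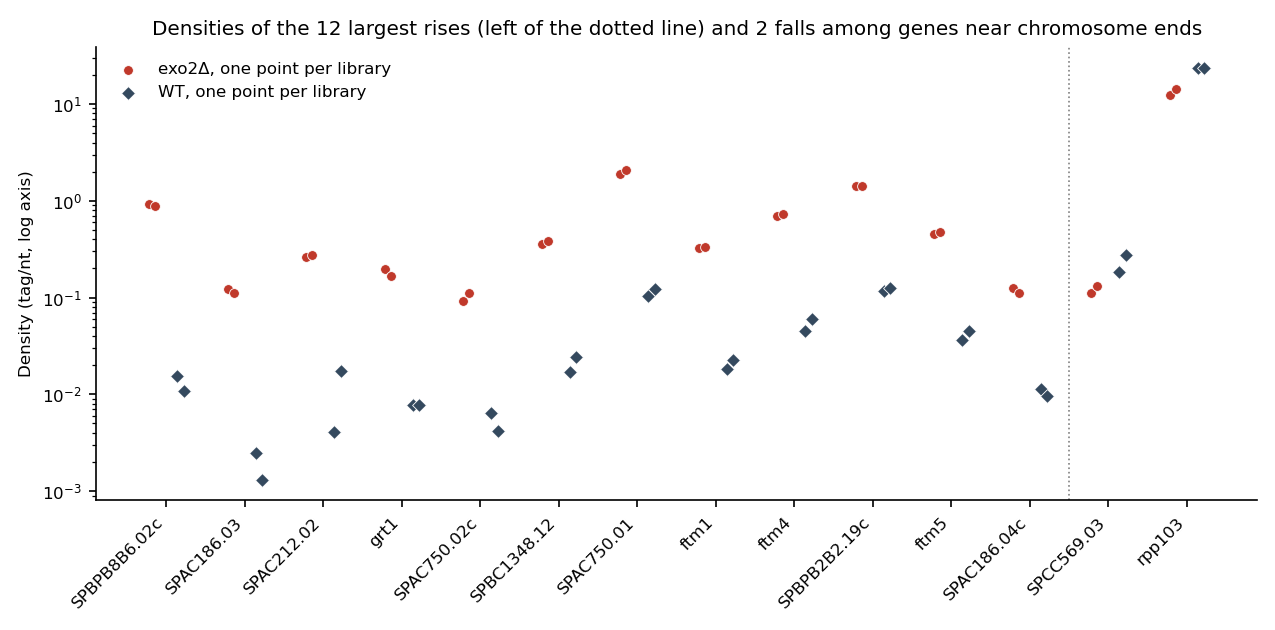
Density in tag/nt (log axis) of the 12 genes near the ends with the largest rises among those whose mean reached 50 normalized reads and, right of the dotted line, the 2 with falls past the test on p; red circles are the *exo2*Δ libraries and dark diamonds the WT libraries. Only genes whose groups of libraries do not overlap were taken, so the separation of the points follows from the choice. The log2 ratios of the 12 genes on the left lie between 3.50 and 6.12, and in SPCC569.03 and *rpp103* the order is turned.

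By the product that RefSeq gives, 5 of 7 transporters were called higher, with a median log2 ratio of 4.24 (1.29 over the 216 transporters of all genes). The 2 that were not, *nic1* and SPCC569.05c, are those of chromosome III. Over all genes, 63.4% of transporters were called higher. Both transcription factors and both glycoproteins were called higher, beside 70.9% of all transcription factors and 53.8% of all glycoproteins, as were *tlh2* and the helicase-like SPAC212.06c of 3 helicases, beside 46.6% of all helicases. Of 13 genes whose product name held a keyword for a metabolic enzyme, 4 were called higher (SPAC186.02c, SPAC750.01, *fah1* and SPCC569.07), 3 were not and 6 were not tested, and the 3 methyltransferase copies are among those not tested. Over all genes this list had 45.3% called higher. The keywords missed enzymes such as *pdc102*, SPAC186.03, SPAC186.06, SPAC750.08c and *hsp3101*, which were called higher and count under other products, so the list does not hold all enzymes of these windows. Of 28 genes with uncharacterised products, 23 were called higher, with a median of 2.45 (65.3% called higher, and a median of 1.36 over the 348 tested, among all such genes). The 29 genes with other products include 18 called higher, with a median of 2.36 (1.08 over all such genes). These lists were made by keywords in the product names, and members that are copies of each other count more than once.

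Because single reads of copies often cannot be told apart, the reads of each family were also summed. The 4 genes of the *ftm1* family (*ftm1*, *ftm4*, *ftm5* and SPBPB2B2.19c), 1 at each end of chromosomes I and II, held 3881 and 4085 reads in *exo2*Δ, against 409 and 446 in WT, a ratio of 12.4 after normalization. The family of the uncharacterised SPAC212.01c, with 5 genes at these 4 ends, held 1283 and 1342 reads in *exo2*Δ, against 358 and 335 in WT, a ratio of 5.04. The log2 ratios of single copies lay between 3.53 and 4.01 in the first family and between 2.12 and 2.52 in the second. In some families with fewer reads they lay further apart, at 2.71 for *pfl6* and 5.85 for its copy SPBC1348.08c, and at 0.97, 1.62 and 2.36 for the 3 Vel1p domain genes. In others they did not, at 3.77 for SPAC977.18 and 3.88 for SPBPB2B2.18, and at 2.03 for SPCP20C8.01c and 2.24 for SPCC569.01c. The transporter family held 264 and 296 reads in *exo2*Δ, against 21 and 11 in WT, a ratio of 23.5. The uncharacterised family of SPAC977.06 held 190 and 176 reads in *exo2*Δ, against 8 and 4 in WT, the largest ratio of a family at 41. The 2 *tlh* helicases together held 900 and 738 reads in *exo2*Δ, against 286 and 333 in WT, a ratio of 3.51. The Vel1p family, at 3.06, was the lowest of the 14 families with reads. The 14 ratios are all above 1, which is the common outcome: both *exo2*Δ libraries lay above both WT libraries for 90.5% of all genes. Some rest on few reads, as in the methyltransferase family, with 2 and 7 in *exo2*Δ against 1 and 2 in WT. Values of single copies within a family are uncertain.

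Restricting the genes to those with 50% or more unique windows left 34, of which 33 were tested, 21 were called higher and 0 lower. That is 63.6% of those tested called higher, beside 54.8% of all genes tested. Their median log2 ratio was 1.73, beside 1.08 over all genes. This choice shifts the weight to chromosome III, which has 20 of the 34. Of the 14 on chromosomes I and II, 13 were tested and 11 were called higher (84.6% of those tested, the exceptions being *gal1* and SPAC186.08c). The median of these was 3.50. The restriction was chosen after the data had been seen.

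**Figure D3:**
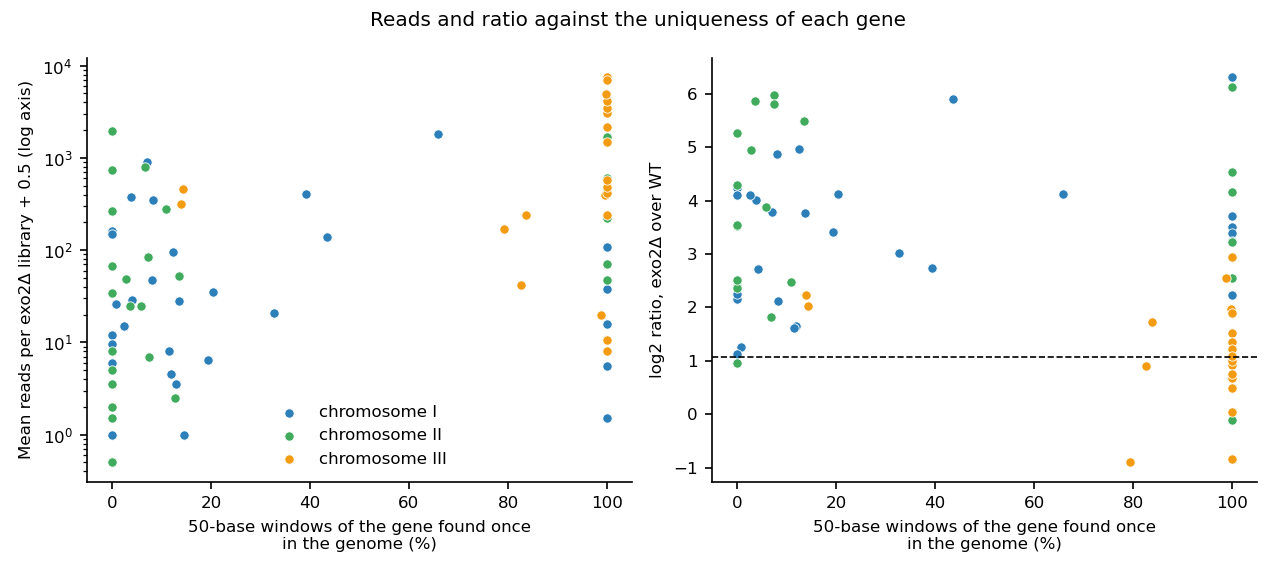
Mean reads per *exo2*Δ library plus 0.5 (left, log axis) and log2 ratio of *exo2*Δ to WT (right) of each gene against the percentage of its 50-base windows found once in the genome, coloured by chromosome. The genes of chromosomes I and II have a median of 3.50 among those with 50% or more unique windows, with *gal1* at -0.10, and those of chromosome III lie mostly at 100% and near the dashed line, the median of all genes (1.08).

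Antisense XUTs were present in all 6 windows. There were 14 asXUTs with an overlap of 50 nt or more with a gene on the opposite strand (1, 4, 3 and 1 at the ends of chromosomes I and II, 2 and 3 at those of chromosome III), and they lie opposite 12 genes, *ght7* and SPCC569.03 having 2 each. With *grt1*, whose antisense XUT0962 begins just past 50 kb, 13 of the 84 genes have an asXUT (15.5%, beside 21.2% of all genes). All 14 were called higher, beside 99.7% of asXUTs overall. XUTs were defined by the study as higher in *exo2*Δ on these same libraries, so this count is no independent evidence. Their median log2 ratio was 4.58, beside 2.03 over all 1205 asXUTs, and it was 5.30 over the 4 at the right end of chromosome I and 1.41 over the 2 at the left end of chromosome III. Of the 14, 10 run over the start codon of the gene opposite.

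The antisense strand over the start codon is shown for 3 of these genes, with the complement of the start codon in capitals (RefSeq, ASM294v3, at chrI:5552782-5552842 on the minus strand, chrII:4488462-4488522 on the minus strand and chrI:5546582-5546642 on the plus strand). They were chosen because the gene opposite rose, did not change past the test, or was hardly detected.
XUT0785 over pdc102: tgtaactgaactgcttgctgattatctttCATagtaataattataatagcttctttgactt
XUT0444 over gal1: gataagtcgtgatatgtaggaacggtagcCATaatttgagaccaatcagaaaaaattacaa
XUT1635 over SPAC186.07c: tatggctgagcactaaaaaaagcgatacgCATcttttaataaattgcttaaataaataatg

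XUT0785 covers 74.7% of *pdc102* and had 0.487 and 0.428 tag/nt in *exo2*Δ, against 0.00638 and 0.0123 in WT, a log2 ratio of 5.66 (SE 0.31, adjusted p = 5.6e-06). In *exo2*Δ the antisense was thus at 0.457 tag/nt on average and *pdc102* itself, which also rose, at 0.0253. XUT0444 covers 76.6% of *gal1* and had 0.392 and 0.386 tag/nt in *exo2*Δ, against 0.0302 and 0.0296 in WT, a log2 ratio of 3.70 (SE 0.14, adjusted p = 2.4e-06). The antisense of *gal1* was therefore above the mRNA in *exo2*Δ and below it in WT, while the mRNA did not change past the test. XUT1635 covers all of SPAC186.07c and had 0.152 and 0.156 tag/nt in *exo2*Δ, against 0.00170 and 0.000603 in WT, where it had 3 and 1 reads. Its log2 ratio of 7.02 (SE 0.52, adjusted p = 1.7e-05) was the largest of the 14, opposite a gene with 2 reads over the 4 libraries.

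XUT1637 and XUT0155 cover all of the methyltransferase copies SPAC750.03c and SPBC1348.04, and XUT0449 covers 61.0% of the third copy, SPAC977.03. XUT1637 had 0.395 and 0.360 tag/nt in *exo2*Δ, against 0.0133 and 0.0110 in WT, a log2 ratio of 4.94 (SE 0.19, adjusted p = 2.4e-06). XUT0155 had 0.258 and 0.252 tag/nt in *exo2*Δ, against 0.00783 and 0.00515 in WT, a log2 ratio of 5.29 (SE 0.27, adjusted p = 4.5e-06). The 3 genes opposite had 2, 7, 1 and 2 reads together in the 4 libraries, *exo2*Δ first, fewer than any of the 3 XUTs in *exo2*Δ. These 3 XUTs are copies themselves, with 22.7%, 3.55% and 8.76% unique windows. XUT0449 had 70 and 75 reads in *exo2*Δ, against 1 and 1 in WT, a ratio of 96.4 (26.2 to 804, counting interval), and SPAC977.03 opposite had 1 and 5 reads in *exo2*Δ, against 1 and 2 in WT, so that in WT the gene had as many reads as the XUT or more. XUT0960 lies opposite *ght7*, with a log2 ratio of 5.16, as does XUT0961, with 26 and 26 reads in *exo2*Δ against 0 and 1 in WT, and XUT1634 lies opposite SPAC186.04c, with 3.31. Both *ght7* and SPAC186.04c rose. XUT0962, over the start of *grt1*, had 0.171 and 0.183 tag/nt in *exo2*Δ, against 0.00470 and 0.00287 in WT, a log2 ratio of 5.53 (SE 0.33, adjusted p = 7.3e-06), and *grt1* rose too.

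On chromosome III the log2 ratios of the antisense XUTs ran from 1.04 to 4.21. XUT0011, opposite SPCC1884.01, had 1.10 and 1.13 tag/nt in *exo2*Δ, against 0.558 and 0.527 in WT, a log2 ratio of 1.04 (SE 0.08, adjusted p = 1.7e-05) that was -0.13 with TMM factors and just under 1 without WT replicate 2. SPCC1884.01 had 0.261 and 0.249 tag/nt in *exo2*Δ, against 0.0623 and 0.0670 in WT, a log2 ratio of 1.98 (SE 0.13, adjusted p = 1.2e-05), and 0.81 with TMM factors. SPCC569.03 has an asXUT over each of its ends. XUT0956, over its start, had 0.629 and 0.608 tag/nt in *exo2*Δ, against 0.0341 and 0.0324 in WT, a log2 ratio of 4.21 (SE 0.13, adjusted p = 2e-06). XUT0955, over its last 239 nt, had 0.629 and 0.736 tag/nt in *exo2*Δ, against 0.144 and 0.133 in WT, a log2 ratio of 2.30 (SE 0.12, adjusted p = 4.5e-06). SPCC569.03 is thus a gene with a negative ratio and 2 antisense XUTs that rose. XUT0010 and XUT0954, opposite *new22* and SPCC569.06, had log2 ratios of 1.78 and 1.25.

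Over all genes with an asXUT, 58.3% of those tested were called higher, with a median log2 ratio of 1.13, beside 54.8% and 1.08 over all genes. Near the ends, 9 of the 13 genes with an asXUT were tested and 6 were called higher, with a median of 1.98. Of the 71 with none, 63 were tested and 50 were called higher, with a median of 2.55. Within chromosomes I and II the medians were 3.24 over 5 tested genes with an asXUT and 3.71 over 45 with none. No test was made of this difference, and the genes with an asXUT that had too few reads to test are 4 of the 13.

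**Figure D4:**
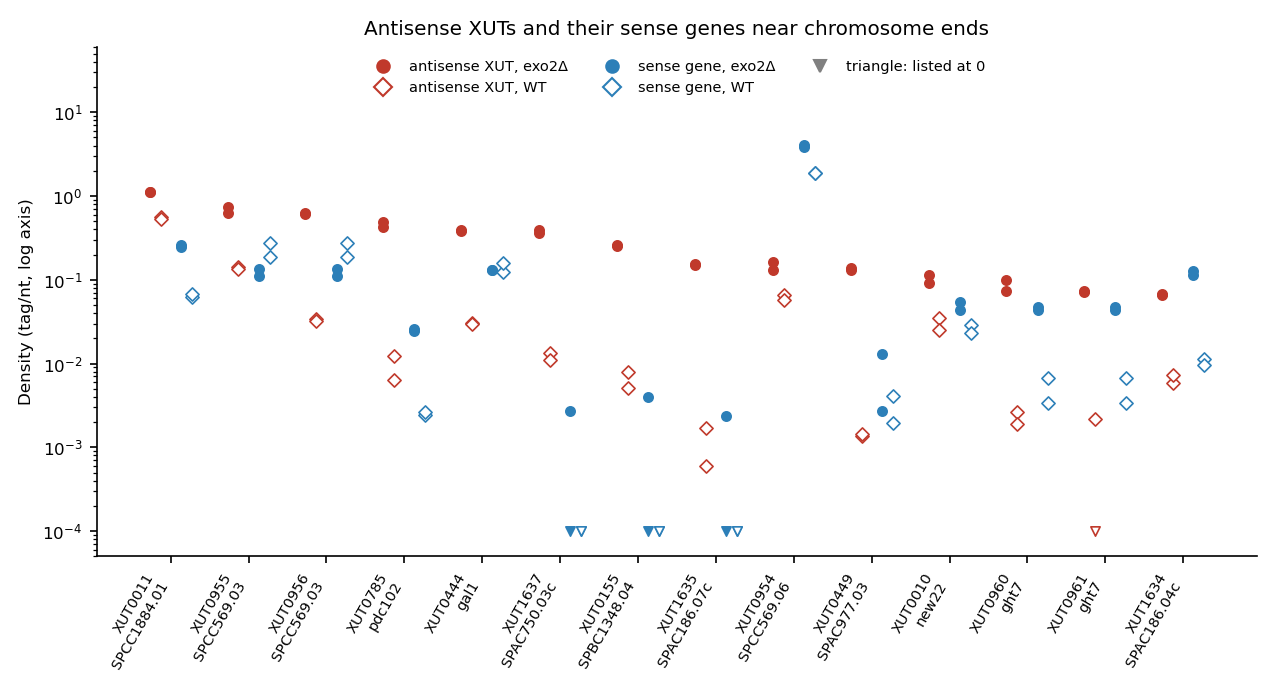
Density in tag/nt (log axis) of each antisense XUT (red) and its sense gene (blue) in the *exo2*Δ libraries (filled circles) and the WT libraries (open diamonds), with triangles at the bottom for values listed at 0; pairs are ordered by the density of the XUT in *exo2*Δ. The XUT is above its gene in *exo2*Δ in all pairs but those of SPCC569.06 and SPAC186.04c.

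The genes on both sides of the 50 kb limit are given as values only. Those just inside it had mean densities of 0 in *exo2*Δ and 0 in WT (*plb4*, I left), 0.0140 and 0 (SPAC186.02c, I right), 0.182 and 0.00770 (*grt1*, II left), 0.131 and 0.142 (*gal1*, II right), 0.221 and 0.0286 (*hsp3101*, III left) and 1.25 and 0.887 (*apl4*, III right), *exo2*Δ before WT. The genes just outside had 1.84 and 1.21 (the sodium and proton antiporter *nhe1*, I left), 0.253 and 0.0178 (the DIPSY family glycoprotein *pfl9*, I right), 0.915 and 0.572 (the L-asparaginase SPBPB8B6.05c, II left), 0.0855 and 0.0294 (*gal10*, II right), 0.699 and 0.337 (SPCC757.04, III left) and 6.55 and 1.88 (*are2*, III right). From 50 to 100 kb, 77 of 106 genes were called higher and 3 lower (103 tested), with a median log2 ratio of 1.48. On chromosomes I and II this was 1.87 (quartiles 1.27 and 3.69, 60 genes tested) and on chromosome III 1.19 (43 genes), so that the medians of chromosomes I and II lay above that of all genes out to 100 kb, with a wide spread among genes.

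**Figure D5:**
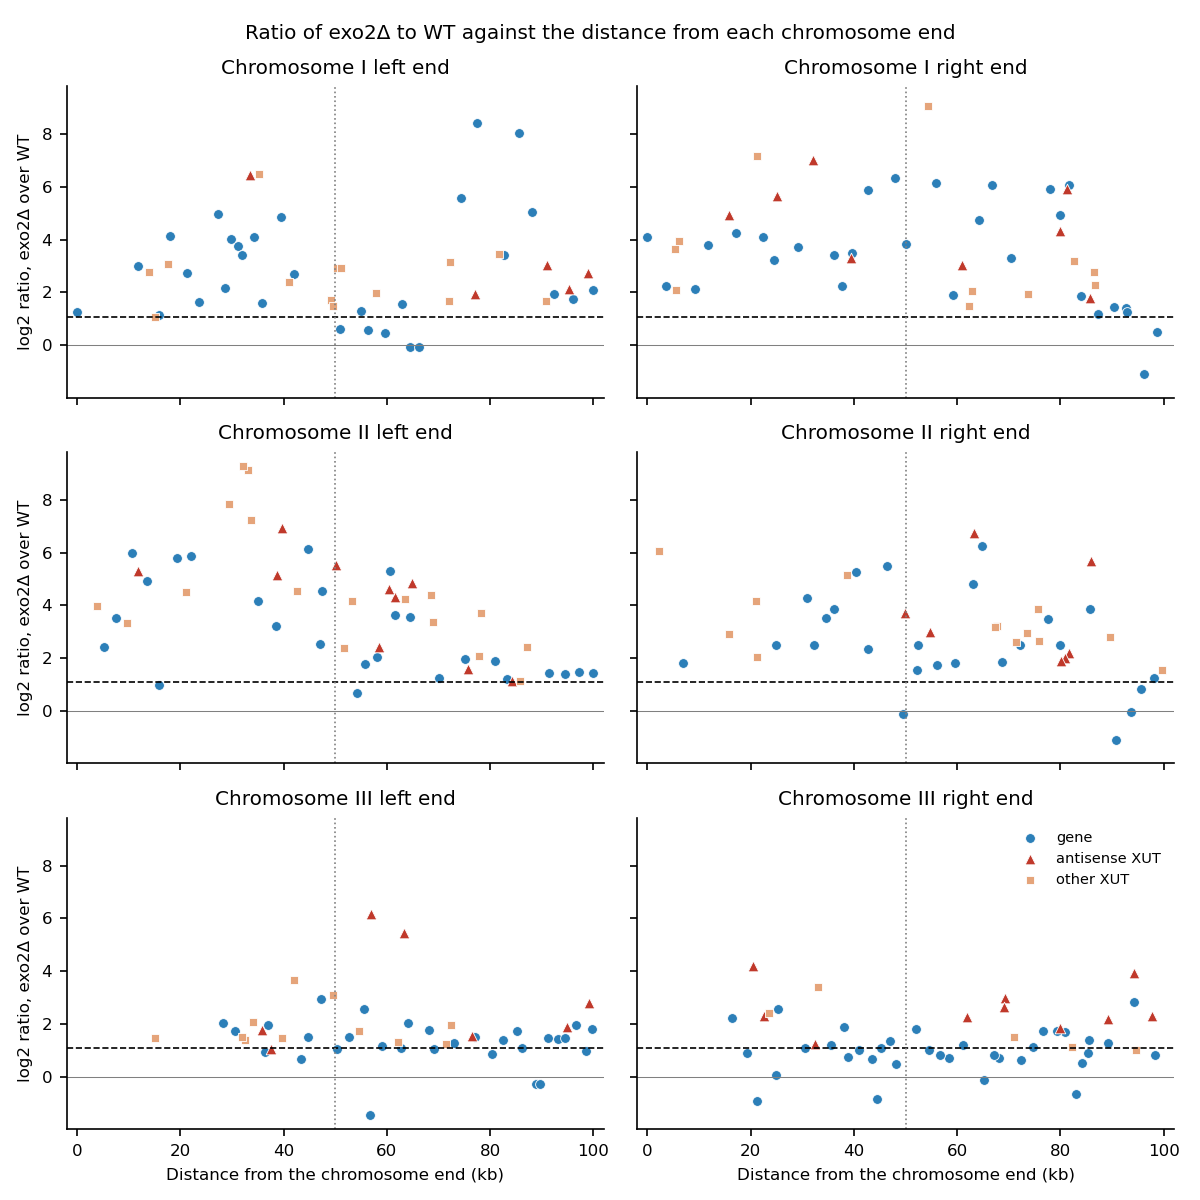
Log2 ratio of *exo2*Δ to WT (vertical axis) of genes (blue circles), antisense XUTs (red triangles) and other XUTs (orange squares) against their distance in kb from each chromosome end; the dotted line marks 50 kb and the dashed line the median of all genes (1.08). Within 50 kb the genes of chromosomes I and II have a median of 3.53, well above the dashed line, and those of chromosome III one of 1.09, on it; for features with no WT reads the ratio depends on the pseudocount.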

How the data were processed

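Total RNA of 2 *exo2*Δ and 2 WT cultures was depleted of rRNA, made into stranded libraries and mapped by the authors with TopHat (build ASM294v2, per the submitters' processing notes). The authors deposited a signal, the density in tag/nt of each feature and library, normalized on small nuclear and nucleolar RNAs, and 2 columns of replicate sums, which were not used. When multiplied by feature length, 100% of the densities were whole multiples of 1 step per library (within 0.001 of a whole number), which gave reads for the filter, the floors of 3 reads and the other scalings.

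Genotypes were compared with limma 3.58.1 (R 4.3.3) on log2(density + 1.55e-04) over 8826 of 9139 features, those with at least 10 reads over the 4 libraries, with Benjamini-Hochberg adjusted p-values over these features. With 2 libraries per genotype an exact permutation test of 1 gene cannot pass 0.05, so the p-values rest on the variance shared across features. A log2 ratio is on the scale of log2(density + pseudocount) so that it depends on the pseudocount where reads are few: it understates the change of low genes with reads in every library and can overstate it where 1 WT library is at 0. Intervals and floors cover counting error only.

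Genes were matched to RefSeq (ASM294v3) by locus tag, and all 84 share a start or stop with it. Uniqueness was the share of a gene's 50-base windows, on either strand, found once in ASM294v3, since protein sequences, on which the comparison of copies was first planned, were not used here. A copy family joins genes that share at least 50% of their windows.

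The members and lists were chosen with earlier results of these data known. Named in full were the outermost gene of each end with at least 10 reads, the 12 largest rises and up to 6 falls past the test on p (2 were found) among genes whose mean reached 50 normalized reads and whose groups do not overlap, the 8 asXUTs with the highest density in *exo2*Δ and their genes, *gal1* and the *tlh* genes, and the 3 genes highest in WT, with copies described as a group. The others are named to account for all 84. Counting intervals came from scipy 1.17.1 and plots from matplotlib 3.10.9 (Python 3.11.15). Alternatives covered the scaling, pseudocount, filter, replicate block, each library left out, the window, the overlap and the call rule.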

Additional observations from a re-analysis of the deposited data

How the results depend on the processing

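The scaling set how many genes near the ends were called. TMM factors gave 37 higher, 4 lower and a median log2 ratio of 1.40, the median of ratios gave 37, 4 and 1.36, and total reads gave 47, 2 and 2.06; asXUTs called higher numbered 11, 11 and 12. A pseudocount of 10 times the smallest density gave a median of 2.08. Calling on p alone gave 62 higher and 2 lower. A window of 25 kb gave 20 genes and 4 asXUTs higher, and one of 100 kb 133 higher, 3 lower, 47 asXUTs and a median of 1.80, since the windows hold other numbers of genes. The members with at least 50% unique windows, chosen after seeing the data, gave 21 higher (63.6% of those tested) and a median of 1.73. Leaving out each library in turn gave 52 to 58 higher, 0 to 1 lower, 13 to 14 asXUTs and medians of 2.49 to 2.77. With no filter 58 were higher and with at least 50 reads 46, and overlaps of 1 or 200 nt gave 14 and 13 asXUTs.

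With the replicate number as a block, 55 genes were higher, 0 lower and 14 asXUTs higher, with the median at 2.55, and no named feature changed its call. Deviations of same-numbered libraries correlated at 0.283 over 5447 features, but the labels give no shared culture or batch, so the pairing rests on the number only.

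Signs turned with TMM factors and the median of ratios for XUT0011 (-0.13 and -0.16), SPCC569.06 (-0.081 and -0.12) and *nsa2* (-0.066 and -0.10). Leaving out each library moved *gal1* between -0.27 and 0.068, the positive value without WT replicate 2. These scalings set the middle of all features near 0 by construction. The planned edgeR and DESeq2 alternatives were not run: the recovered reads served only the filter, the floors and the scalings. Depth limits the 12 genes not tested and those with under about 10 WT reads, for which a missed threshold does not show equal levels.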

Other observations

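Besides the antisense XUTs, 33 XUTs in the 6 windows have no gene opposite by at least 50 nt. All 33 were called higher, with a median log2 ratio of 3.35. The median was 1.97 over all 1638 XUTs, of which 1205 are antisense, and XUTs with no gene opposite were not taken alone there. The 33 too were defined as higher on these libraries. The highest ratios lie together at the left end of chromosome II, between 29.4 and 33.8 kb from the end. XUT0157 had 88 and 97 reads in *exo2*Δ and 0 in both WT libraries, at least 40.9-fold higher against a floor of 3 reads per WT library. XUT0958 had 52 and 41 reads in *exo2*Δ and 0 in both WT libraries, at least 20.6-fold higher. XUT0959 had 0.255 and 0.250 tag/nt in *exo2*Δ, against 0.00291 and 0.000777 in WT, a log2 ratio of 7.22 (SE 0.56, adjusted p = 2.1e-05 with limma). All windows of these 3 are unique. The XUT closest to an end, XUT0447, lies 2.36 kb from the right end of chromosome II, with 94 and 72 reads in *exo2*Δ and 1 and 2 in WT. On chromosome III, XUT0953 had 1.68 and 1.65 tag/nt in *exo2*Δ, against 0.153 and 0.160 in WT, a log2 ratio of 3.41 (SE 0.08, adjusted p = 2e-06 with limma).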
